A study of Mus musculus with 40 samples.

Results

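The genes described here are the growth arrest and DNA damage genes Gadd45a, Gadd45b and Gadd45g and 7 genes known as direct targets of the tumour suppressor p53, namely Cdkn1a, Btg2, Mdm2, Ccng1, Trp53inp1, Phlda3 and Bax. They were chosen by name and by function, with earlier results of these data known, and every probe set that the platform annotation ties to one of these symbols alone was taken. This gave 18 probe sets of 9 genes among 45037 probe sets on the array, and Bax was not analysed here. The microarray study asked which transcripts change in the liver, where phenobarbital (PB) promotes tumours, and in the kidney, which is not a target, after 4 weeks of exposure. It used 20 male B6C3F1/Crl mice, the offspring of C57BL/6 males and C3H/He females, which were 29 to 32 days old on arrival and were dosed after 5 days of acclimatisation. The PB group of 10 mice had 0.05% (w/v) phenobarbital in its drinking water for 28 days, the control group of 10 mice was not given the drug, and liver and kidney were taken from each mouse on the last day, so that there were 4 groups of 10 arrays. All mice belonged to the same hybrid strain and sex, no allele was altered, and every array holds the RNA of a piece of whole tissue from a single animal.

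The transcription factor p53 is stabilised by DNA damage and other stresses, and it then switches on genes that stop the cell cycle, repair DNA or start apoptosis. Cdkn1a encodes p21, which blocks cyclin-dependent kinases, Btg2 encodes an antiproliferative protein that works with the CCR4-NOT deadenylase, and Mdm2 and Ccng1 act back on p53, Mdm2 as its ubiquitin ligase and Ccng1, cyclin G1, as a partner of Mdm2 and of the phosphatase PP2A. The 3 GADD45 proteins are small stress sensors that bind PCNA, p21 and the kinase MAP3K4. Gadd45a is the p53 target among them, whereas Gadd45b responds mainly to NF-kB and TGF-beta signalling, is induced early in the regenerating liver, and has been described as a partner of CAR, the nuclear receptor through which phenobarbital acts in hepatocytes. Several of these genes, Cdkn1a, Btg2, Gadd45b and Gadd45g included, also respond within an hour or so to growth factors, hormones and handling, without p53.

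The 250 bases before the transcription start of 4 of these genes are shown because 3 of them (Gadd45b, Cdkn1a and Btg2) carried the changes in liver, and because Cdkn1a and Ccng1 are the pair with a p53 element in this window. The sequences are those of RefSeq on the build GRCm38.p6, they run 5′ to 3′ on the strand of the gene, and capitals mark the motif found by the search. The window of Gadd45b is chr10:80929841-80930090 on the plus strand, with an E-box (CACGTG, the site of clock and other bHLH factors) in capitals.
Gadd45b: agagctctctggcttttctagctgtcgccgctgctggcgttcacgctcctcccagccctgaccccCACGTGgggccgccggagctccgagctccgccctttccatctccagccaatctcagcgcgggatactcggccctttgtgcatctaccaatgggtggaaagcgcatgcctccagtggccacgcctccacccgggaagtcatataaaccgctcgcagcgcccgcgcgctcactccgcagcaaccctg
The window of Cdkn1a lies before its upstream start, at chr17:29090729-29090978 on the plus strand, and the capitals mark the p53 element.
Cdkn1a: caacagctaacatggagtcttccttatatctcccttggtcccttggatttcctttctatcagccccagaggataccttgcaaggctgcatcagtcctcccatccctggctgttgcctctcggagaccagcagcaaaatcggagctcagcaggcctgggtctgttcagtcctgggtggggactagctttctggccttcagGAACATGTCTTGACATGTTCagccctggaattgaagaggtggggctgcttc
The window of Btg2 is chr1:134079156-134079405 on the minus strand, and the capitals mark a cyclic AMP response element (TGACGTCA).
Btg2: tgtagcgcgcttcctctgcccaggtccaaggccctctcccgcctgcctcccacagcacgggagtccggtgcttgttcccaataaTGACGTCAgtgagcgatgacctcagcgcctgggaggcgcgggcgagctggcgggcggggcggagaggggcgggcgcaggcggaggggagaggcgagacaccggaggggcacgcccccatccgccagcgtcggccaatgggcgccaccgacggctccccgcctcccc
The window of Ccng1 is chr11:40755287-40755536 on the minus strand, its last bases lie inside the annotated gene, and the capitals mark the p53 element.
Ccng1: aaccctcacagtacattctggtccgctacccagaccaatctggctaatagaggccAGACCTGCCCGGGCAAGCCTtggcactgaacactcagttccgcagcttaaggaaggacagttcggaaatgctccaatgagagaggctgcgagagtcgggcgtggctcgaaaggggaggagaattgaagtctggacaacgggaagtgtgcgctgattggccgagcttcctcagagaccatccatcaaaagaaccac

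The searches read both strands of 32851 windows of this length, of which 10 belong to the genes named above (Cdkn1a has a window for each of 2 starts, and Trp53inp1 has none). A p53 element, taken as the 20-base consensus with no spacer and at most 1 mismatch, was found in 0.0761% of all windows, and among the members in Cdkn1a, at chr17:29090928-29090947, and in Ccng1, at chr11:40755462-40755481. The E-box was found in 6.02% of all windows and in those of Bax, Gadd45b and Gadd45g, and the cyclic AMP response element in 1.55% of all windows and in that of Btg2. An NF-kB site (GGG and TTTCC with any 2 bases between) was found in 1.41% of windows and the direct repeat that nuclear receptors such as CAR can bind (AGGTCA repeated after any 4 bases) in 0.0152%, and no window of the genes held either. The letters of a motif describe the sequence only, and the search says nothing of binding, nor of sites further from the start.

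The values are MAS5 signals, a linear measure of probe set brightness that the authors had scaled to a common mean per array. Levels of different probe sets cannot be set against each other as amounts of RNA. Array medians lay between 30 and 37.2, and signals under 50, the level the study used as its filter, are read here as low. The median correlation of an array with the others of its group was 0.953 to 0.985, and the lowest value was that of control liver 2. The tissue labels held: the 9 measured hepatocyte markers summed to between 143421 and 188948 in control livers and to between 15839 and 26787 in control kidneys, and the 10 kidney tubule markers to between 48218 and 64758 in control kidneys and at most 1731 in control livers. Because whole tissue was measured, fewer cells of a type and less RNA per cell cannot be told apart. The 10 mice per group were separate animals, and each change below is tested against the spread between them.

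In liver, PB raised Gadd45b and lowered Cdkn1a and Btg2, and no other gene among the 9 passed the test. The log2 signals of PB and control livers were compared in limma over the 18981 probe sets whose mean reached 50 in at least 1 of the groups, and a call means a Benjamini-Hochberg adjusted p under 0.05. Of the 18 probe sets 17 were tested and 6 were called, 2 of them higher and 4 lower, against 12.3% of all probe sets tested (5.88% higher and 6.43% lower). With the brightest probe set of each gene, 3 of 9 genes were called, 1 higher and 2 lower, against 14.2% of 9975 genes (6.45% higher and 7.72% lower). The brightest was picked over control and PB livers together. For Gadd45b, the gene called higher, the PB signals thus took part in the choice of 1450971_at. Its mean was 19.9 in control livers, so it passed the filter through PB livers alone. The other called Gadd45b probe set, 1449773_s_at, averaged 43.2 in control livers and also passed through PB livers alone. In control livers 1420197_at was brighter (63.2), and it was not called (limma adjusted p = 0.0912). The median log2 fold change of the 9 genes was -0.09, beside -0.02 over all genes. These 6 calls held under each of the 13 other settings of the test, where 6 or 7 were called, and with any single array left out, where 6 to 8 were called.

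**Figure D1:**
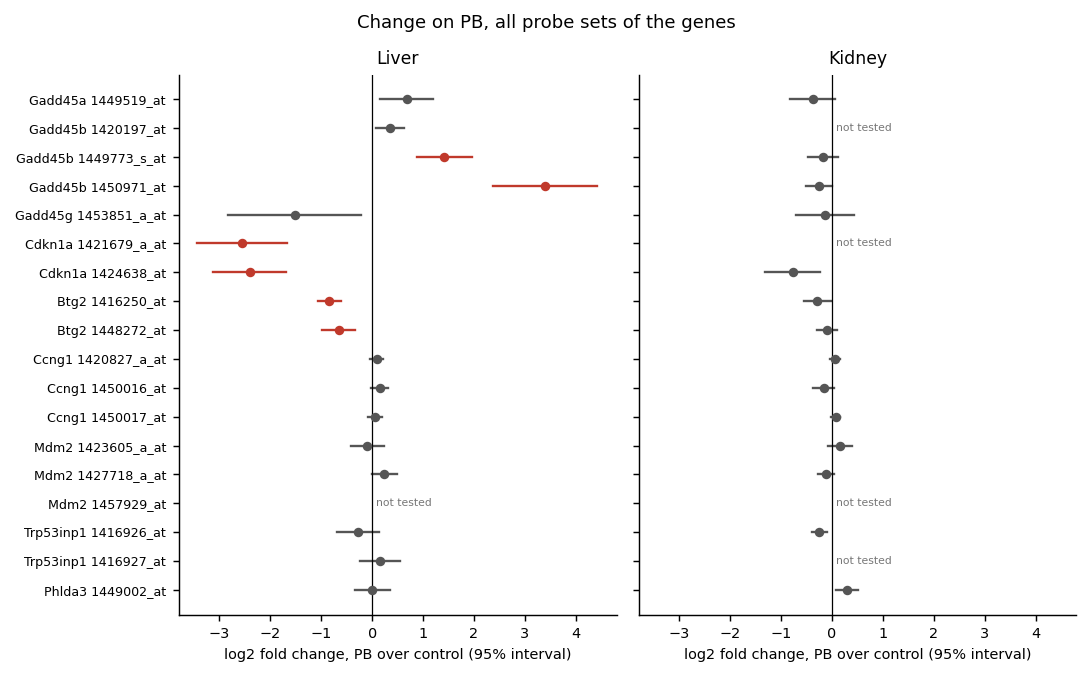
Log2 fold change of PB over control (x axis, point) with its 95% interval (line) for each probe set (y axis), in liver (left) and kidney (right); red marks an adjusted p under 0.05 and "not tested" a mean under 50 in both groups. The 6 red probe sets belong to Gadd45b, Cdkn1a and Btg2 and all lie in the liver panel.

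Gadd45b was the gene that rose. At the probe set 1450971_at the control livers had signals of 2 to 73 with a median of 13.4, and the PB livers 64.5 to 213.9 with a median of 139.9. All 10 PB livers exceeded 50 where 9 of 10 control livers did not, and 9 of 10 PB livers lay above every control liver. The group means were 19.9 ± 21.0 and 134.6 ± 48.0 (SD, n = 10), and the fitted log2 fold change was 3.39 (limma, SE 0.50, adjusted p = 5.00e-05). That value depends on control signals near the floor of the array, and with signals under 50 set to 50 it was 1.28, which makes the increase at least 2.43-fold. The highest control signal, 73, came from control liver 2, and without that array the log2 fold change was 3.68.

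The other probe sets of Gadd45b gave smaller changes. At 1449773_s_at, whose suffix marks probes that can be shared with related transcripts, control livers ranged from 18.9 to 116.4 with a median of 38.4 and PB livers from 59.3 to 201.0 with a median of 91.6. The ranges overlapped through control liver 2 alone, which had 116.4 where the next control had 44.8. The control mean of 43.2 was under the filter, so this probe set was tested through PB livers alone. The log2 fold change was 1.42 (SE 0.26, adjusted p = 0.000595), 1.60 without control liver 2, and 0.92 with signals under 50 set to 50, which makes the increase at least 1.89-fold. At 1420197_at the control livers had a median of 65 (45.1 to 92.1) and the PB livers a median of 74.4 (65.7 to 112.2), a log2 difference of 0.35 that did not pass the test (adjusted p = 0.0912). The 3 probe sets of Gadd45b therefore shared the sign of the difference in liver but not its size, as the plot of their signals shows.

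**Figure D2:**
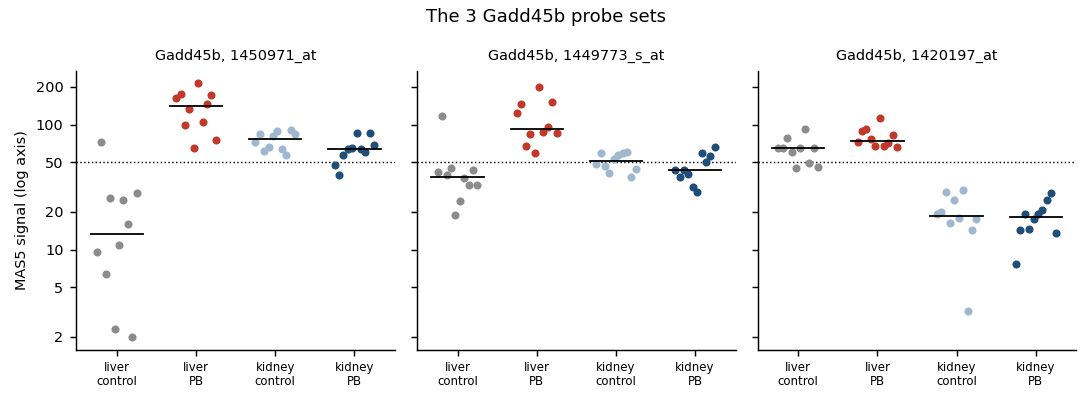
MAS5 signal (log y axis) of the 3 Gadd45b probe sets in each animal (points, in order of animal number within a group) of the 4 groups, with the group median (bar) and the signal of 50 (dotted line). PB livers lie above the dotted line at all 3 probe sets, and control liver 2 is the high grey point of 73 and 116.4 in the left and middle panels.

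The paralogues of Gadd45b did not pass the test in liver. Gadd45a, the member of the family under p53 control, had control signals of 21.1 to 148.3 with a median of 76.2 and PB signals of 75.1 to 177.9 with a median of 128.3. The groups overlapped, and the log2 difference of 0.68 had a 95% interval of 0.15 to 1.20 (unadjusted p = 0.0143, limma adjusted p = 0.0860). Leaving out control liver 7 gave 0.78 and a limma adjusted p of 0.0391. Leaving out control liver 2, which had the lowest control signal, gave 0.47 and an adjusted p of 0.106. Gadd45g varied widely between animals: control livers ranged from 49.9 to 1096.5 with a median of 350.4 and PB livers from 30.1 to 704.8 with a median of 85.3. In PB livers 5 of 10 signals lay below every control, while the others spread over much of the control range. The log2 difference was -1.52 with a 95% interval of -2.83 to -0.22 (adjusted p = 0.120), and it was called when PB liver 17 was left out (adjusted p = 0.0493) or when all 40 arrays shared 1 estimate of the spread (adjusted p = 0.0353).

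**Figure D3:**
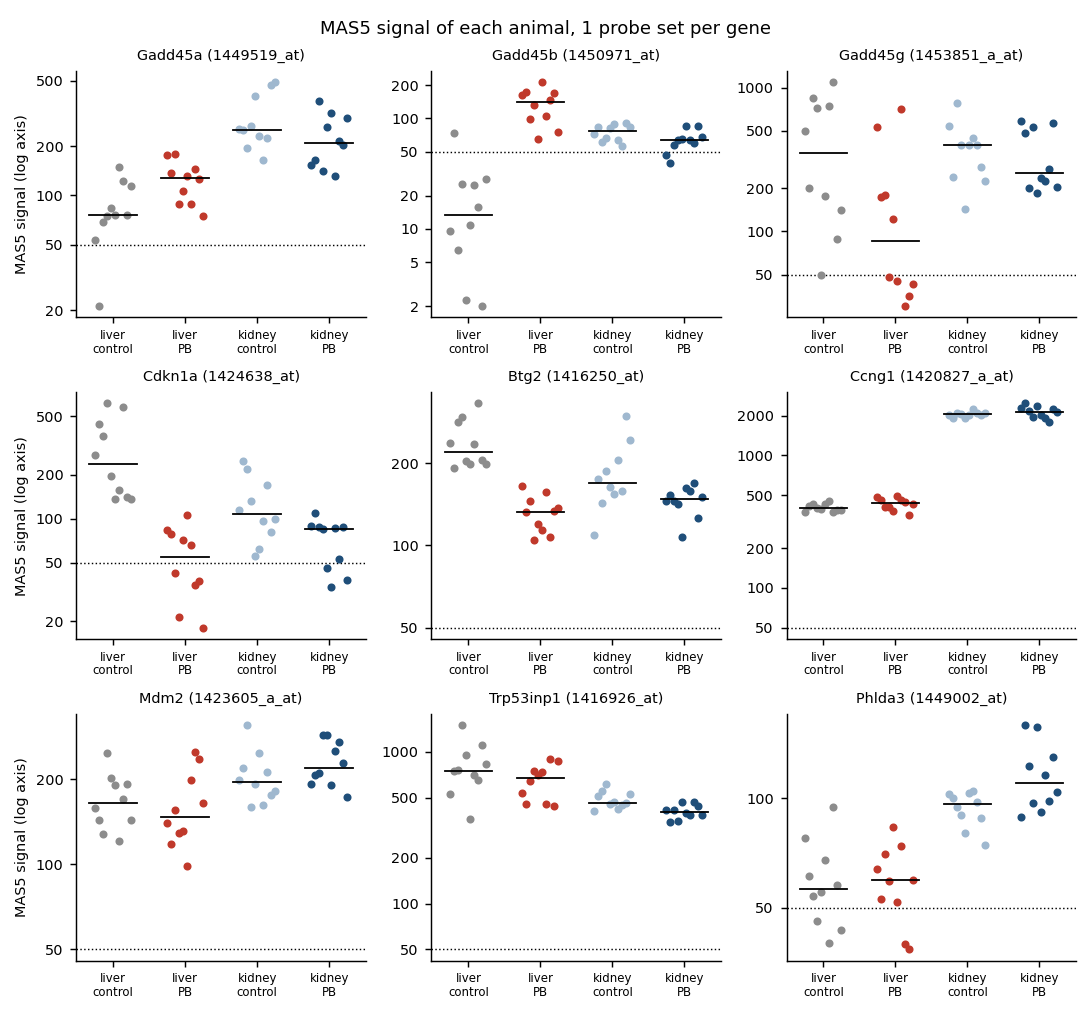
MAS5 signal (log y axis) of each animal (points, in order of animal number within a group) in the 4 groups for the brightest probe set of each of the 9 genes, with the group median (bar) and the signal of 50 (dotted line). Cdkn1a and Btg2 show control and PB livers that do not overlap, Gadd45g spans 30.1 to 1096.5 in liver, and Ccng1 separates liver from kidney.

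Cdkn1a, the inhibitor of cyclin-dependent kinases, fell in liver at both of its probe sets. At 1424638_at control livers had 136.6 to 610.9 with a median of 234.9, and PB livers 18.1 to 106.3 with a median of 54.8. All 10 PB livers lay below all 10 controls, a pattern that 0.337% of the probe sets tested showed in this direction. The means of 303.8 ± 185.3 and 56.2 ± 29.3 (SD, n = 10) differed 5.40-fold, and the log2 fold change was -2.40 (SE 0.35, adjusted p = 4.37e-05). Since 5 of 10 PB livers were under 50, the decrease was also computed with such signals set to 50. On mean log2 values it was then 4.06-fold, beside 5.28-fold on the same measure without that change. At 1421679_a_at the median was 92.7 in controls (49 to 260.3) and 18.2 in PB livers (6.5 to 51.2), and 9 of 10 PB livers lay below every control. Because only 1 of 10 PB livers reached 50 there, the log2 fold change of -2.55 (SE 0.43, adjusted p = 0.000268) depends on the floor, and it was -1.03 with signals under 50 set to 50, a decrease of at least 2.04-fold. Control livers were themselves unequal, the highest Cdkn1a signal being 4.47 times the lowest at 1424638_at.

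Btg2, the antiproliferative partner of the deadenylase complex, fell in liver as well, by less but with less spread. At 1416250_at control livers ranged from 191.9 to 330.3 with a median of 220.0 and PB livers from 104.5 to 165.4 with a median of 133. The groups did not overlap in any of the 20 livers. The mean fell from 237.7 ± 48.6 to 131.5 ± 20.4 (SD, n = 10), which is 1.81-fold lower (log2 fold change -0.84, SE 0.11, adjusted p = 9.58e-06). The second probe set, 1448272_at, had control signals of 70.7 to 237.6 with a median of 166 and PB signals of 74.2 to 125.5 with a median of 106.4. These overlapped, and the log2 fold change was -0.66 (SE 0.16, adjusted p = 0.00719).

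The genes that act back on p53 gave no call in liver. Mdm2, the ubiquitin ligase, had control signals of 121.1 to 248.8 (median 164.5) and PB signals of 98.9 to 250.7 (median 147.6) at 1423605_a_at, a log2 difference of -0.09 with a 95% interval of -0.42 to 0.23. Its second probe set, 1427718_a_at, gave 0.24 with an interval of 0.00 to 0.48 (adjusted p = 0.181), and the third, 1457929_at, stayed below 50 on all 40 arrays and was not tested. The 2 Mdm2 probe sets thus differed in sign and neither passed. Ccng1, cyclin G1, varied little: at 1420827_a_at control livers had 371.1 to 456.1 and PB livers 355.6 to 490.7, and the log2 difference was 0.09 with an interval of -0.03 to 0.22. Its other probe sets gave 0.15 and 0.05, with adjusted p values of 0.277 and 0.661. The 95% intervals of the 3 Ccng1 probe sets thus ended at 0.32 or below, while Cdkn1a, the other gene with a p53 element before its start, fell.

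The remaining p53 targets were also without a call in liver. Trp53inp1, a stress protein of p53 nuclear bodies, ranged from 363.8 to 1507.3 (median 750.7) in control livers and from 441.9 to 901.6 (median 674.3) in PB livers at 1416926_at. The log2 difference was -0.28 with an interval of -0.68 to 0.13, and 0.15 (-0.24 to 0.54) at its dim second probe set 1416927_at. Phlda3, an inhibitor of Akt, had medians of 56.5 (40.1 to 94.4) and 59.5 (38.5 to 83.1), and its log2 difference of -0.00 had an interval of -0.34 to 0.34. For Trp53inp1 the interval reaches a decrease as large as that of Btg2 at 1448272_at, and for Phlda3 it reaches about one of the size of Perp below.

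Among further genes of the p53 pathway the calls in liver went in both directions. Of 25 further p53 targets tested, 5 were called, 2 higher and 3 lower, which is to be read beside 14.2% of all genes, and their median log2 fold change was -0.03. Pidd1, the death domain protein of the PIDDosome, had the largest change of these, from a mean of 77.0 to 49.3 (log2 fold change -0.87, adjusted p = 0.0447). Perp, a membrane protein of desmosomes and apoptosis, fell by 0.37 on the log2 scale, and Tigar, which dampens glycolysis, rose by 0.37. Among p53 and its regulators 3 of 13 were called, the checkpoint kinase Atr (0.70) and the p53-binding inhibitor Ppp1r13l (0.41) higher and the acetyltransferase Kat5 (-0.33) lower. None of the 10 GADD45 partners tested was called, nor did any reach an unadjusted limma p under 0.05, and the one with the highest signal, the kinase Map2k3, had a log2 difference of -0.09. Of 10 paralogues of the genes 2 were called, both lower: Bok, a relative of Bax in the BCL2 family (log2 fold change -0.79, adjusted p = 0.000109), and Trp53inp2 (-0.32). Among 12 genes of the BCL2 family tested, Bok and the antiapoptotic Mcl1 (-0.33) were the ones called.

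Some genes of groups that respond quickly to hormones, handling or the time of day also changed in the same livers, to be read beside the 14.2% called among all genes. Of 11 immediate early genes tested 4 were called, all lower: Egr1 fell by 2.76 on the log2 scale from a mean signal of 1265 to 174, Fos fell by 1.92, Dusp1 fell by 1.18 and Junb fell by 0.54. Of 12 clock genes 6 were called, 4 higher and 2 lower, with Dbp up by 2.32, Per2 by 0.94 and Tef by 0.86 and Arntl down (-0.75). Of 9 genes that respond to glucocorticoids 3 were called, all lower, with Mt2 at -3.26 and with Dusp1, already counted above, among them. Their part in the changes of Gadd45b, Cdkn1a and Btg2 was not tested.

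Some markers of other liver cells were called too. Of the 9 stellate cell and fibroblast markers tested 5 were called lower, and the sum over all 10 measured markers ranged from 3591 to 4328 in control livers and from 2962 to 3835 in PB livers. The 9 hepatocyte markers summed to between 134597 and 191091 in PB livers, close to the controls, with Fgb (-0.29) and Ahsg (-0.20) called. Kupffer cell and macrophage markers gave 2 of 9 called lower and endothelial markers 1 of 8, shares near the 14.2% of all genes. The summed markers ranged from 2836 to 4497 in control and 2146 to 4390 in PB livers for the first list, and from 1873 to 2567 and 1848 to 2519 for the second. Of the 5 cholangiocyte markers measured 1, Epcam, was tested in liver, with means of 63.9 and 62.5 and no call, and lymphocyte and neutrophil markers summed to at most 403 in any liver, with S100a9 called lower (-1.88). The part of these cell types in the results above was not tested.

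In kidney none of the 9 genes was called. Of the 18 probe sets 14 were tested, and 0 passed in limma after adjustment, beside 3.26% called among 19229 probe sets. The unadjusted limma p was under 0.05 for 4 of the 14, and the share of all probe sets at that level was not computed. The methods' t-test called 0 of the 14 on either scale as well. Trp53inp1 came nearest at 1416926_at, with 406.5 to 613.2 (median 463.8) in controls and 347.8 to 470.9 (median 404) in PB kidneys. There 5 of 10 PB kidneys lay below every control, and the log2 difference was -0.25 with an interval of -0.40 to -0.10 (adjusted p = 0.0548). Trp53inp1 passed with a filter at a mean of 100 (adjusted p = 0.0457), after quantile normalization (0.0476), and in 5 of 20 fits that left out a single array.

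Cdkn1a in kidney had the same sign as in liver, with medians of 107.6 (56.1 to 249.2) in controls and 85.6 (34.5 to 109.8) in PB kidneys at 1424638_at. The log2 difference of -0.77 had an interval of -1.32 to -0.23 (adjusted p = 0.107), and without control kidney 5 it was -0.89 with an adjusted p of 0.0490. Btg2 gave -0.29 (interval -0.56 to -0.02, adjusted p = 0.242) and Phlda3 0.29 (0.08 to 0.51, adjusted p = 0.131). In Phlda3, 5 of 10 PB kidneys lay above every control, at up to 158.6 against 104.5. For the Gadd45 genes the kidney values were -0.38 (-0.82 to 0.06) for Gadd45a, -0.26 (-0.52 to 0.01) for Gadd45b at 1450971_at, and -0.14 (-0.71 to 0.43) for Gadd45g. Gadd45b gave -0.18 (-0.47 to 0.12) at 1449773_s_at, and 1420197_at was not tested in kidney. At both tested Gadd45b probe sets the interval in kidney thus ended below the value of that probe set in liver. That of Ccng1 lay between -0.05 and 0.16 at 1420827_a_at, and the other Ccng1 probe sets gave -0.16 (-0.37 to 0.04) and 0.07. That of Mdm2 lay between -0.07 and 0.40 at 1423605_a_at, while 1427718_a_at gave -0.12 (-0.27 to 0.03).

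Of 24 further p53 targets tested in kidney 1 was called, Ak1, an adenylate kinase (0.41, adjusted p = 0.0243), beside 3.74% of all genes. None of the p53 regulators (14 tested), GADD45 partners (10), paralogues (11) or BCL2 genes (11) was called in limma, with 1, 0, 2 and 4 of them at an unadjusted p under 0.05. The share of all genes at that unadjusted level was not computed. Clock genes gave 7 of 13 called, with Dbp up by 1.35, and glucocorticoid-responsive genes 3 of 9, with Zbtb16 at -1.45. Of 12 immediate early genes 1, Dusp1, was called lower (-0.44), and it is also among the 3 glucocorticoid-responsive genes called. An unadjusted limma p under 0.05 was reached by 10 of the clock, 5 of the glucocorticoid-responsive and 6 of the immediate early genes tested. All 3 lists thus gave calls in both tissues, and their part in the kidney values was not tested either.

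Whether the effect of PB differed between the tissues was tested directly, as an interaction over all 40 arrays. Of 17 probe sets tested 4 were called, beside 6.21% of 21866 probe sets, and at gene level 3 of 9, beside 7.66% of genes. Gadd45b had the largest difference, a log2 value higher in liver by 3.64 (SE 0.54, adjusted p = 8.73e-06) at 1450971_at and by 1.59 (SE 0.31, adjusted p = 0.000546) at 1449773_s_at. With signals under 50 set to 50 these differences were 1.49 and 0.93, both still called. The third Gadd45b probe set, 1420197_at, gave 0.34 (interval -0.38 to 1.06) and was not called (limma adjusted p = 0.652). For Cdkn1a the effect was lower in liver by -1.63 at 1424638_at (SE 0.46, adjusted p = 0.0265), whereas 1421679_a_at, dim in kidney, gave -1.41 without passing (adjusted p = 0.287). Setting signals under 50 to 50 brought that probe set to -0.93 with an adjusted p of 0.0243. Btg2 lay at the threshold: the difference of -0.56 at 1416250_at had an adjusted p of 0.0494, and with the animal as a block, which uses that liver and kidney came from the same mouse, it was 0.0822. It was also lost without a filter (0.0859), after quantile normalization (0.0771) and in 27 of 40 fits that left out an array. Gadd45a, at 1.06 (interval 0.35 to 1.77, adjusted p = 0.0615), was just outside, and passed with a filter at a mean of 100 (0.0499), with signals under 50 set to 50 (0.0443) and in 6 of 40 such fits. Without control liver 2 the Gadd45a difference was 0.85 (limma adjusted p = 0.0809). For Gadd45g, Mdm2, Ccng1, Trp53inp1 and Phlda3 no difference passed.

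In control mice most of the genes differed between liver and kidney, as did most genes on the array. Of 17 probe sets tested 13 were called, 6 higher in liver and 7 lower, beside 78.2% of all probe sets (35% higher and 43.2% lower), so that the share is near the background. At gene level 7 of 9 were called, beside 80.7% of all genes (36.5% higher and 44.2% lower). Ccng1 had the clearest difference, with 371.1 to 456.1 in control livers and 1914.6 to 2245 in control kidneys at 1420827_a_at, which is 5.05-fold lower in liver (log2 -2.34, SE 0.04, adjusted p = 4.09e-23). All 3 Ccng1 probe sets separated the tissues without overlap, as did 43.5% of the probe sets tested. Gadd45a was also lower in liver (log2 -1.88, adjusted p = 1.48e-06), with no control liver above 148.3 and no control kidney below 163.7. Phlda3 (-0.68) and Mdm2 at 1427718_a_at (-0.59) were lower in liver too, and Mdm2 at 1423605_a_at had a difference of -0.28 with an adjusted p of 0.0519.

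Cdkn1a was higher in control liver than in control kidney at both probe sets (log2 1.17, adjusted p = 0.00239, and 1.88, adjusted p = 0.000215, the second falling to 0.94 with signals under 50 set to 50, since control kidneys averaged 34.7 there), as were Btg2 (0.40 and 0.55) and Trp53inp1 at 1416926_at (0.66, adjusted p = 0.00128). The call of Btg2 at 1416250_at was lost when arrays were centred on their median (adjusted p = 0.0526). Gadd45g did not differ in the test (-0.22, interval -1.22 to 0.79). For Gadd45b the probe sets disagreed on the tissue: 1450971_at was lower in liver (control medians 13.4 and 77.1, log2 -2.62, adjusted p = 3.54e-05) and 1420197_at was higher in liver (65 and 18.7, log2 1.86, adjusted p = 4.88e-06). The dimmer group of each lay far under 50, and with signals under 50 set to 50 the differences were -0.51 and 0.33. At 1449773_s_at the difference was -0.38 (adjusted p = 0.119), -0.56 with an adjusted p of 0.00347 without control liver 2, and 0.02 with that floor. The order of the tissues for Gadd45b is therefore not settled by these probe sets.

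Set over the 4 groups, the mean signal of Cdkn1a at 1424638_at ran from control liver (303.8) through control kidney (128.0) and PB kidney (71.8) to PB liver (56.2). Of these neighbours the first pair differed in the test, the kidney pair did not, and the last pair was not tested and overlapped. For Btg2 at 1416250_at the order was control liver (237.7), control kidney (183.3), PB kidney (145.9) and PB liver (131.5). Again the first pair differed in the test and the kidney pair did not. The signals of that first pair overlapped, and its call was lost when arrays were centred on their median. Gadd45b at 1450971_at ran in another order, from PB liver (134.6) through control kidney (75.0) and PB kidney (63.5) to control liver (19.9). The PB livers with 64.5 to 213.9 overlapped the control kidneys with 56.7 to 91.1, and that pair was not tested.

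Animals of the same group also differed from each other, and this spread was compared between genes as log2 deviations from the group mean over the 20 mice. Of 36 pairs of the 9 genes in liver, 1 passed, Gadd45g with Btg2 (Pearson r 0.803, permutation p = 7e-05, adjusted p = 0.00252), and its Spearman rho of 0.683 had a permutation p of 0.00154 and an adjusted p of 0.0554. The r was 0.759 without the 2 livers farthest from the median of Gadd45g, 0.831 within controls and 0.786 within PB livers. The livers split into 10 with a Gadd45g deviation of 0.24 or more and 10 with -0.58 or less, 5 of each treatment on each side, and r was 0.723 within the first set and -0.18 within the second. Each set holds a narrower range of Gadd45g, and the difference between the sets was not tested. In kidney the same pair had an r of -0.29. None of the 36 kidney pairs passed, the nearest being Gadd45a with Gadd45g (r -0.68, permutation p = 0.00187, adjusted p = 0.0673).

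Liver and kidney of the same mouse could be compared for 9 genes, and none passed (lowest adjusted permutation p = 0.255). Cdkn1a had an r of 0.441 over 20 mice, with 0.753 within controls and 0.063 within PB mice, and Gadd45g an r of 0.404, with 0.820 within controls and 0.011 within PB mice. These are the pair with the highest values within controls among the 9 genes, and neither those values nor the difference between control and PB mice was tested.

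**Figure D4:**
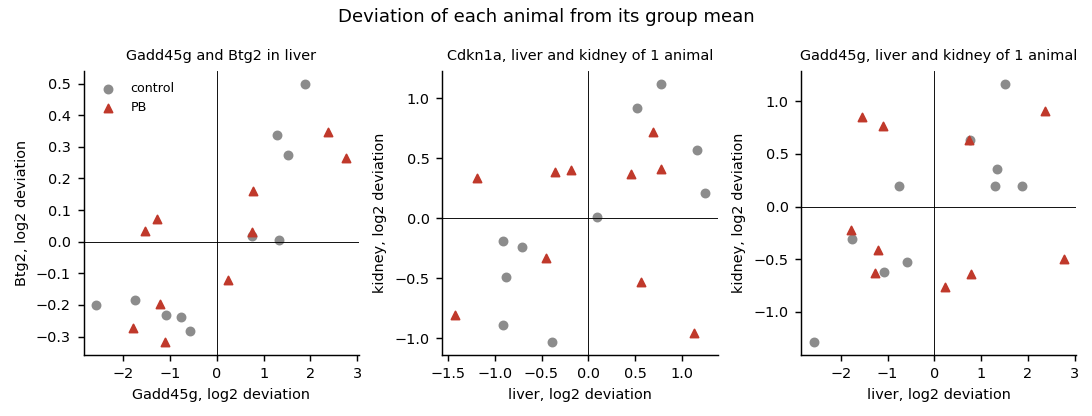
Log2 deviation of each animal from its group mean (20 mice; grey circles control, red triangles PB): Btg2 against Gadd45g in liver (left, r = 0.803), and kidney against liver of the same mouse for Cdkn1a (middle, r = 0.441) and Gadd45g (right, r = 0.404). Within controls r was 0.753 in the middle and 0.820 in the right panel, and within PB mice 0.063 and 0.011, values that were not tested.

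The genes whose deviations over the 20 livers were most like those of the 3 genes that changed were found among 9975 genes by Pearson r. They were Marchf5 (0.787), Sec61a1 (0.778) and Pomgnt1 (0.771) for Gadd45b, a gene annotated as Nrp (0.831), Tab2 (0.825) and Pes1 (0.819) for Cdkn1a, and Gadd45g (0.803), Bcl10 (0.790) and D030056L22Rik (0.754) for Btg2. They are the closest of a large search, and in the 20 kidneys the same pairs had r between -0.32 and 0.36. Of the 9, Tab2 was called in liver, lower like Cdkn1a (log2 fold change -0.48, adjusted p = 0.000112). The deviations of Gadd45b were those of 1450971_at, where 1 of 10 control livers reached 50. The 3 genes named for it thus rest in part on signals read here as low.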

How the data were processed

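Expression was profiled in liver and kidney of 20 mice on 40 Affymetrix Mouse430_2 arrays. The deposited intensity values are MAS5 signals on a linear scale, which the authors scaled to a common trimmed mean per array (148.9 to 149.3 over the values used here, with 2% removed at each end), and animals were not pooled. GCOS and MAS5 are named, with no version, in the processing notes of the submitters. Detection calls were not used here. No depth applies to arrays, and the number of animals limits the precision.

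Probe sets were named by the platform annotation, updated by Entrez number through RefSeq genes of GRCm38.p6: 34945 had 1 symbol, 932 several and 9160 none, and 34741 matched. Signals were raised to a floor of 1 before log2. Probe sets whose mean reached 50 in at least 1 group compared were fitted in limma 3.58.1 (lmFit, eBayes with a trend; R 4.3.3), two-sided, with Benjamini-Hochberg adjustment over all probe sets tested, for PB against control in liver and in kidney, for the difference of these effects, and for liver against kidney in controls. Each gene was represented by its brightest probe set, by the mean over all arrays of the tissue, PB included, or of both tissues for comparisons between them. Where the dimmer of a pair of means was under 50, the fold is a lower bound on mean log2 values, with signals under 50 in the dimmer group set to 50. Deviations from group means were correlated with 100000 permutations within groups (Python 3.11.15, NumPy 2.4.6, pandas 2.3.3, SciPy 1.17.1; figures by matplotlib 3.10.9). The scripts were tested on simulated data.

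All member probe sets were reported for liver, and in the other comparisons some enter only the counts or the figures. From the 15 gene lists, up to 4 genes with the largest changes among those called are named, or the brightest where none was called. Members and lists were chosen with earlier results of these data known. The donor label ties each liver to the kidney of that mouse: the deviations of the pair, taken over 16344 probe sets, had a median r of 0.079 (-0.068 to 0.188), against -0.0094 for different mice of a group. Alternatives were other filters, floors and scalings, other tests, the animal as a block, a number in the sample descriptions of unstated meaning as a covariate, and leaving out each array. The promoter methylation and chromatin data of the study were not analysed here.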

Additional observations from a re-analysis of the deposited data

Results flagged for a closer look

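In 4 of 72 sets of 10 animals (18 probe sets in 4 groups) 1 animal stood far from the rest, where chance flags about 1 in 20 sets. The gap to the nearest animal, divided by the range of the group, was 0.734 for Gadd45b at 1449773_s_at (116.4 in control liver 2, next 44.8) and 0.632 for Gadd45b at 1450971_at (73 in the same liver, next 28.1). It was 0.578 for Btg2 at 1448272_at (179.4 in control kidney 9, next 123.2) and 0.532 for Trp53inp1 at 1416927_at (94 in control kidney 4, next 58.2) (each above the 95% critical value of Dixon's test). Control liver 2 is also the array least like its group. Without it the Gadd45b changes in liver were 3.68 and 1.60 on the log2 scale, and without it or control kidney 9 the difference between tissues in Btg2 at 1448272_at was called (adjusted p = 0.00272 and 0.0294, from 0.0740). The Gadd45a difference in liver was 0.47 without control liver 2, from 0.68.

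The effect of PB differed between liver and kidney, by the interaction test, at 4 probe sets: by 3.645 and 1.595 on the log2 scale for Gadd45b at 1450971_at and 1449773_s_at, by -1.627 for Cdkn1a at 1424638_at and by -0.5565 for Btg2 at 1416250_at. The call of Btg2 lay at the threshold (limma adjusted p = 0.0494). It was lost with the animal as a block (0.0822) and in 27 of 40 fits that left out an array. The second Btg2 probe set, 1448272_at, was not called (0.0740). Nor was the third Gadd45b probe set, 1420197_at (0.34, limma adjusted p = 0.652).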

How the results depend on the processing

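The 6 calls in liver held in all 13 other settings and in all 20 fits that left out an array (members called, 6 to 8; all probe sets, 1986 to 2541). Of the values of single probe sets under an alternative, 2258 kept their side of the threshold, 39 gained a call and 31 lost it, of which 30 were the tissue difference of Btg2 at 1416250_at, and no call changed sign. Uncalled values near 0 changed sign in some settings (Phlda3 in liver, from -0.06 to 0.08 when an array was left out). In kidney 1 member was called with a filter at a mean of 100 and 1 after quantile normalization (Trp53inp1 in both), and 0 to 2 when an array was left out. The count over all kidney probe sets, 627, was 335 without a filter, 367 by Welch's test and 200 with all 40 arrays in one fit, and 393 to 852 when an array was left out (393 without control kidney 8 and 411 without PB kidney 19). Between tissues in controls, 25522 probe sets were called without a filter. With the animal as a replicate block the members called were 3 for the difference between tissues (1287 of all probe sets) and 13 between control tissues, and Btg2 at 1416250_at lost its call (adjusted p = 0.0822), while no other call changed. The cause of these shifts was not tested. Signals under 50 are read here as low, though background was not measured. The sizes for Gadd45b in control liver and for Cdkn1a in PB liver are therefore bounds or depend on the floor.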
